A study of Homo sapiens with 16 samples.

Results

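Genes of N-glycan processing in the endoplasmic reticulum (ER) were followed together with the nucleobindins NUCB1 and NUCB2. The 7 genes were PRKCSH, GANAB, MOGS, CANX, UGGT1, NUCB1 and NUCB2, out of 26485 genes in the count table. PRKCSH and NUCB1 were selected on a measured value, the fall of their counts after the siRNA siCAG, and the other 5 were taken because they encode partner enzymes, a lectin, a folding sensor or a paralog. Since the fall after siCAG chose PRKCSH and NUCB1, their values in that comparison are a description with no test. All 7 genes passed the filter on low counts in both cell lines. On hg38 they lie at chr19:11435257-11450967 (PRKCSH, + strand), chr11:62624826-62646726 (GANAB, -), chr2:74461057-74465410 (MOGS, -), chr5:179698929-179731638 (CANX, +), chr2:128091180-128195675 (UGGT1, +), chr19:48900050-48923283 (NUCB1, +) and chr11:17276739-17331523 (NUCB2, +).

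RNA-seq libraries came from PC3, an established prostate cancer line, and HeyA8, an established ovarian cancer line, with 8 libraries from each. Cells were mock treated or transfected with siNT1 (the control siRNA), siGGGGGC (an siRNA named for the seed in its guide strand) or siCAG, and RNA was taken at 24 and 48 h, so that each line, condition and time has 1 library. Each condition thus has 2 replicates, 1 per time, which the labels do not assign to separate cultures. The paper's methods describe wells lysed at 24 h and remaining wells given a medium change at 24 h and lysed at 48 h. The SDs given here also hold the effect of time, with which that medium change goes. The tests have a term for time, so their standard errors hold that effect only where it differs between conditions. The siGGGGGC libraries carry another siRNA name, siMxy, in their titles and in the count table, and were assigned to siGGGGGC by their treatment label. The labels give a dose of 1 nM for every siRNA, whereas the paper's methods give a higher one. Both lines are wild type by their labels, which name no transgene or deletion.

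The sum of counts per library ran from 27937092 to 29971612 in PC3 cells and from 29128446 to 31790209 in HeyA8 cells. Levels are given as CPM, a gene's count scaled to a fixed library total, after TMM scaling within a line, and a gene was called at an edgeR adjusted p under 0.05. In bulk RNA, fewer cells of a kind and less RNA per cell cannot be told apart. The lines were checked against marker genes: HOXB13, a prostate homeobox gene, averaged 230 CPM over the 8 libraries of PC3 cells, and PAX8, a Müllerian transcription factor, averaged 159 CPM over those of HeyA8 cells. Other defining markers were absent: KLK3, the gene of prostate-specific antigen, was at 0 in all PC3 libraries, and MUC16, an ovarian cancer antigen gene, had 0.0362 and 0 CPM in the mock libraries of HeyA8 cells. Of other cell types, leukocyte markers summed to at most 1.91 CPM in any library, endothelial markers to at most 12.1 CPM, and fibroblast or stromal markers to at most 57.7 CPM in PC3 and 47.6 CPM in HeyA8 cells. The most abundant stromal marker, COL1A1, read 10.5 and 6.47 CPM after siNT1 and 22.3 and 47.0 CPM after siCAG in HeyA8 cells, and 34.9 and 55.1 CPM after siNT1 and 31.1 and 57.0 CPM after siCAG in PC3 cells (scale of all 16 libraries); its part in the results was not tested.

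In the ER lumen, the enzyme encoded by MOGS (glucosidase I) trims the outermost glucose from newly attached N-glycans, and glucosidase II removes the remaining ones. Glucosidase II joins the catalytic alpha subunit encoded by GANAB to the beta subunit encoded by PRKCSH, which binds calcium through EF-hands, recognizes mannose and keeps the enzyme in the ER. Calnexin (CANX) binds glycoproteins that still carry a single glucose, and UGGT1 adds a glucose back to those that are not yet folded. Loss of PRKCSH or GANAB is a known cause of polycystic liver disease. The nucleobindins NUCB1 and NUCB2 are EF-hand proteins of the Golgi and secretory pathway, and NUCB2 is the precursor of nesfatin.

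The coding sequences were read for CTG in a row, the complement of the CAG for which siCAG is named; the sequence of siCAG was not in the sources used here, so the letters below describe the genes and show no siRNA site. PRKCSH and NUCB1 shared a run of 23 bases in their coding sequences, and of the 18994 genes with a canonical coding transcript in GENCODE v44 only these 2 held that run. Other pairs among the 7 genes shared 10 to 14 bases at most. The windows of 30 bases below (hg38, coding strand, 5′ to 3′) show this stretch in PRKCSH and NUCB1, the start of the coding sequence of the paralog NUCB2 and the longest run in GANAB, with CTG in a row in capitals:
PRKCSH: ctgttgccgCTGCTGCTGCTGctacccatg
NUCB1: ctgttgccgCTGCTGCTGCTGctcctgctt
NUCB2: aggtggaggaccatcCTGctacagtattgc
GANAB: attgacgtcttcCTGCTGCTGgggccctcc
The PRKCSH window lies at chr19:11436121-11436150 on the + strand in exon 2 and begins at base 4 of the coding sequence. The NUCB1 window lies at chr19:48900830-48900859 on the + strand, also in exon 2, and begins at coding base 34. The NUCB2 window is at chr11:17295327-17295356 on the + strand in exon 3, and the GANAB window at chr11:62631067-62631096 on the - strand in exon 10.

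PRKCSH and NUCB1 each had 4 CTG in a row, read as leucine codons near the start of the protein, where secretory proteins carry a signal peptide. Runs of leucine codons reached 5 in PRKCSH and 7 in NUCB1, and 2 in NUCB2. GANAB and UGGT1 had 3 CTG in a row, MOGS and CANX had 2, and NUCB2 had no 2 in a row. A run of at least 4 CTG stood in the coding sequence of 2.52% of all 18994 genes. Among annotated transcripts with a complete coding sequence, all 5 of PRKCSH and all 13 of NUCB1 held a run of 4 or more. Transcripts with an incomplete coding sequence were not read. In the best 21 bases of each coding sequence, NUCB1 differed from an unbroken CTG repeat at 1 base and PRKCSH at 2, whereas CANX and MOGS differed at 5, GANAB and UGGT1 at 6 and NUCB2 at 8.

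In untreated cells the 7 genes spanned about an order of magnitude per length. Per kilobase of the canonical transcript, on a CPM scale set over all 16 libraries, GANAB stood at 186.7 ± 7.06 (SD, n = 2), PRKCSH at 155.9 ± 10.8 and CANX at 152.8 ± 19.7 in mock-treated PC3 cells. Below them came NUCB1 at 38.5 ± 1.42, MOGS at 21.4 ± 1.22, UGGT1 at 19.1 ± 1.88 and NUCB2 at 16.5 ± 3.16 CPM per kilobase. The level of PRKCSH could not be separated from that of CANX, nor MOGS from UGGT1 or UGGT1 from NUCB2, at this spread. In mock-treated HeyA8 cells CANX led at 243.8 ± 6.49 CPM per kilobase, ahead of GANAB (159.3 ± 5.58) and PRKCSH (117 ± 9.0). NUCB1 followed at 27.2 ± 1.54, and UGGT1, MOGS and NUCB2 lay between 14.6 and 22 CPM per kilobase, with UGGT1 and MOGS, and MOGS and NUCB2, within each other's spread. The order depended on the length used. Per kilobase of the deposited exonic length, mock-treated PC3 cells had CANX at 76.3, GANAB at 37.5, NUCB1 at 35.9 and PRKCSH at 27.8. NUCB2 stood at 23.5, MOGS at 11.2 and UGGT1 at 9.47 on that scale. In HeyA8 cells CANX led there too, and NUCB1 (25.4) stood above PRKCSH (20.9).

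CANX was the only member called between the mock-treated lines. Its level was lower in PC3 than in HeyA8 cells, by 0.68 on the log2 scale (SE 0.175, edgeR adjusted p = 0.00755), in a comparison where 51.0% of 15887 tested genes were called. The call was lost without the 24 h mock library of HeyA8 (log2 fold change -0.57, adjusted p = 0.0887) or without the 48 h mock library of PC3 (-0.54, adjusted p = 0.103). PRKCSH and NUCB1 had higher values in PC3 cells, with log2 fold changes of 0.41 (edgeR adjusted p = 0.154) and 0.50 (adjusted p = 0.178).

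Neither the control siRNA nor time moved any of the 7 genes past the threshold. With edgeR, 0 of 7 were called for siNT1 against mock in either line, with 0 at an unadjusted p under 0.05 and 0 by DESeq2, where 0.231% of all tested genes were called in PC3 cells and 0 in HeyA8 cells. In the HeyA8 comparison 177 genes had an unadjusted p under 0.05 and DESeq2 called 1. For 48 h against 24 h, 0 of 7 were called in either line, again with 0 at an unadjusted p under 0.05 and 0 by DESeq2, beside 0.0264% of all genes in PC3 cells, while no gene was called in HeyA8 cells (879 at an unadjusted p under 0.05, 59 by DESeq2).

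**Figure D1:**
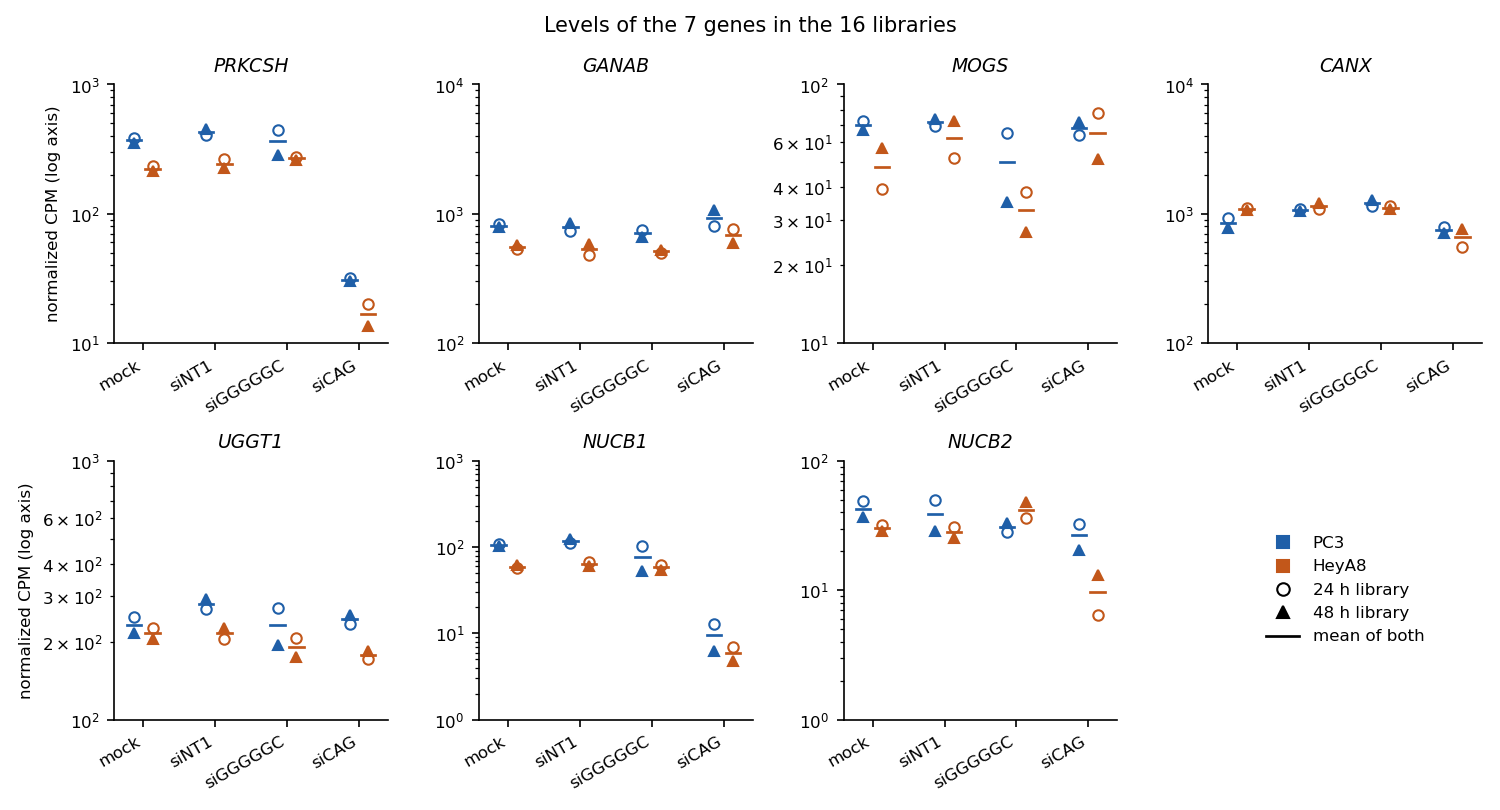
Normalized CPM (log axis, a separate range for each gene) of the 7 genes in the 16 libraries, by condition, with PC3 in blue, HeyA8 in orange, open circles for 24 h, triangles for 48 h and bars for the mean of both. PRKCSH and NUCB1 drop in all 4 siCAG libraries, to at most 31.6 and 12.9 CPM, while GANAB, the partner of PRKCSH, stays at 483.7 CPM or above, and NUCB2 is lowest in the HeyA8 siCAG libraries.

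One condition stood apart from the rest. In HeyA8 cells the 24 and 48 h siCAG libraries differed from each other by a median of 0.528 on the absolute log2 scale, and 21.7% of genes by more than 2-fold, against medians of 0.157 to 0.289 in the other HeyA8 conditions and 0.151 to 0.321 in PC3 cells. HeyA8 levels of the 7 genes after siCAG are therefore given below at each time.

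PRKCSH and NUCB1 were low after siCAG at both times in both lines. PRKCSH read 408.6 and 452.8 CPM in the siNT1 libraries of PC3 cells (24 and 48 h) and 31.6 and 30.2 CPM in the siCAG libraries. In HeyA8 cells it read 264.5 and 225.2 CPM after siNT1 and 20.0 and 13.5 CPM after siCAG. No siCAG library overlapped any other library of its line. The fitted decrease was 14.0-fold in PC3 cells (log2 fold change -3.81) and 14.7-fold in HeyA8 cells (-3.88), so that 7.15% and 6.79% of the siNT1 level was left. In a separate fit of all 16 libraries, the line difference (PC3 less HeyA8) was -0.041 on the log2 scale.

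NUCB1 read 113.3 and 123.8 CPM after siNT1 and 12.9 and 6.33 CPM after siCAG in PC3 cells. In HeyA8 cells it read 66.6 and 61.1 CPM after siNT1 and 6.99 and 4.83 CPM after siCAG. Here too the siCAG libraries lay below all 6 others of the line, and the 48 h library was the lower one each time. The fitted decrease was 13.1-fold in PC3 cells (log2 fold change -3.71) and 10.9-fold in HeyA8 cells (-3.44). Against mock in place of siNT1 the log2 fold changes of NUCB1 were -3.51 and -3.35, and those of PRKCSH -3.58 and -3.75. Ordered from the lowest log2 fold change, PRKCSH was 7th and NUCB1 9th of 15136 genes in PC3 cells, and they were 68th and 106th of 13872 in HeyA8 cells. A few counts can come from genes on the other strand, since the counting is not stated to use strand: CCDC151 overlaps PRKCSH and had 496 counts in all against 114524, and NUCB1-AS1 overlaps NUCB1 and had 16 against 29287.

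GANAB, the catalytic partner of PRKCSH, was not called after siCAG. It read 739.6 and 854.4 CPM after siNT1 and 805.6 and 1065 CPM after siCAG in PC3 cells, and the siRNAs overlapped. In HeyA8 cells it read 483.7 and 579.2 CPM after siNT1 and 767.2 and 598.3 CPM after siCAG, both above all 6 other libraries of the line. The share of all genes that lie apart in this way was not counted, here or for the genes below. The log2 fold changes of 0.23 (SE 0.171, edgeR adjusted p = 0.594) and 0.36 (SE 0.216, adjusted p = 0.305) were not called. Without the 48 h siCAG library of HeyA8 the value was 0.60 (edgeR adjusted p = 0.0195), and without the 24 h library it was 0.096.

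The subunit transcripts of glucosidase II were compared as a ratio. In units of CPM per kilobase of transcript, PRKCSH over GANAB was 0.853 and 0.815 in mock-treated PC3 cells, 1.01 and 0.97 after siNT1 and 1.09 and 0.778 after siGGGGGC. After siCAG the ratio was 0.0718 at 24 h and 0.0519 at 48 h. In HeyA8 cells it lay between 0.678 and 1.01 in the 6 other libraries and was 0.0478 and 0.0414 after siCAG. The ratio of NUCB1 over NUCB2, on the same scale, lay between 1.52 and 4.11 in the 6 other PC3 libraries and was 0.379 and 0.294 after siCAG. In HeyA8 cells it lay between 1.07 and 2.32 and was 1.03 and 0.353. Both ratios rest on the values that chose PRKCSH and NUCB1 and are descriptions.

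Apart from PRKCSH and NUCB1, the members were tested after siCAG. Of the other 5, edgeR called 0 in PC3 cells (1 at an unadjusted p under 0.05, 0 by DESeq2), where 1.20% of all 15136 tested genes were called, and 1 in HeyA8 cells (2 at an unadjusted p under 0.05, 2 by DESeq2), where 7.81% of 13872 genes were called. Their median log2 fold change was -0.20 in PC3 cells and -0.28 in HeyA8 cells, beside -0.0056 and -0.011 over all tested genes. Neither MOGS nor UGGT1 was called. MOGS had log2 fold changes of -0.077 (SE 0.253, edgeR adjusted p = 0.922) and 0.053 (SE 0.350, adjusted p = 0.936) in PC3 and HeyA8 cells, and UGGT1 of -0.20 (SE 0.181, adjusted p = 0.667) and -0.28 (SE 0.212, adjusted p = 0.421). UGGT1 read 234.0 and 254.3 CPM in PC3 and 171.9 and 183.9 CPM in HeyA8 cells after siCAG, in both lines below the siNT1 libraries. The PC3 values lay within the range of the other libraries, whereas in HeyA8 cells the 24 h value was below all 6 others and the 48 h value was above 1 of them, siGGGGGC at 48 h (175.4 CPM). The HeyA8 value of MOGS joins opposite ones, 77.8 CPM at 24 h and 51.6 CPM at 48 h after siCAG against 52.1 and 72.3 CPM after siNT1.

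CANX had lower values after siCAG in both lines without passing the threshold in either. In PC3 cells it read 1089 and 1049 CPM after siNT1 and 790.1 and 716.1 CPM after siCAG, with no overlap, but mock-treated cells were at 927.5 and 772.8 CPM. In HeyA8 cells it read 1080 and 1220 CPM after siNT1 and 550.1 and 764.0 CPM after siCAG, below all 6 other libraries. The log2 fold changes were -0.51 (SE 0.150, edgeR adjusted p = 0.199) and -0.81 (SE 0.205, adjusted p = 0.0585). The HeyA8 value passed under DESeq2 (-0.83, adjusted p = 0.0197) and with edgeR without the 24 h (-0.61, adjusted p = 0.0266) or the 48 h siCAG library (-1.06, adjusted p = 0.00263), and the PC3 value passed when only the 4 compared libraries were fitted (adjusted p = 0.00522); the lines differed by 0.20 (adjusted p = 0.780).

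NUCB2, the paralog of NUCB1, was the member called in HeyA8 cells. It read 30.9 and 25.2 CPM after siNT1 and 6.48 CPM at 24 h and 13.1 CPM at 48 h after siCAG, below all other HeyA8 libraries. The log2 fold change was -1.57 (SE 0.357, edgeR adjusted p = 0.0473), with -2.17 at 24 h and -0.92 at 48 h. In PC3 cells NUCB2 read 49.5 and 28.8 CPM after siNT1 and 32.7 and 20.6 CPM after siCAG; the libraries overlapped and the log2 fold change was -0.55 (SE 0.25, adjusted p = 0.393), which passed when only the 4 compared libraries were fitted (adjusted p = 0.0129). The difference between the lines, 0.92 on the log2 scale (SE 0.440), did not pass its own test (adjusted p = 0.369). The HeyA8 call was lost with the 4 compared libraries alone (-1.60, adjusted p = 0.0759), with the 6 libraries other than siGGGGGC (-1.56, adjusted p = 0.0931) and without either siNT1 library (-1.23 and -1.94, adjusted p = 0.280 and 0.211).

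**Figure D2:**
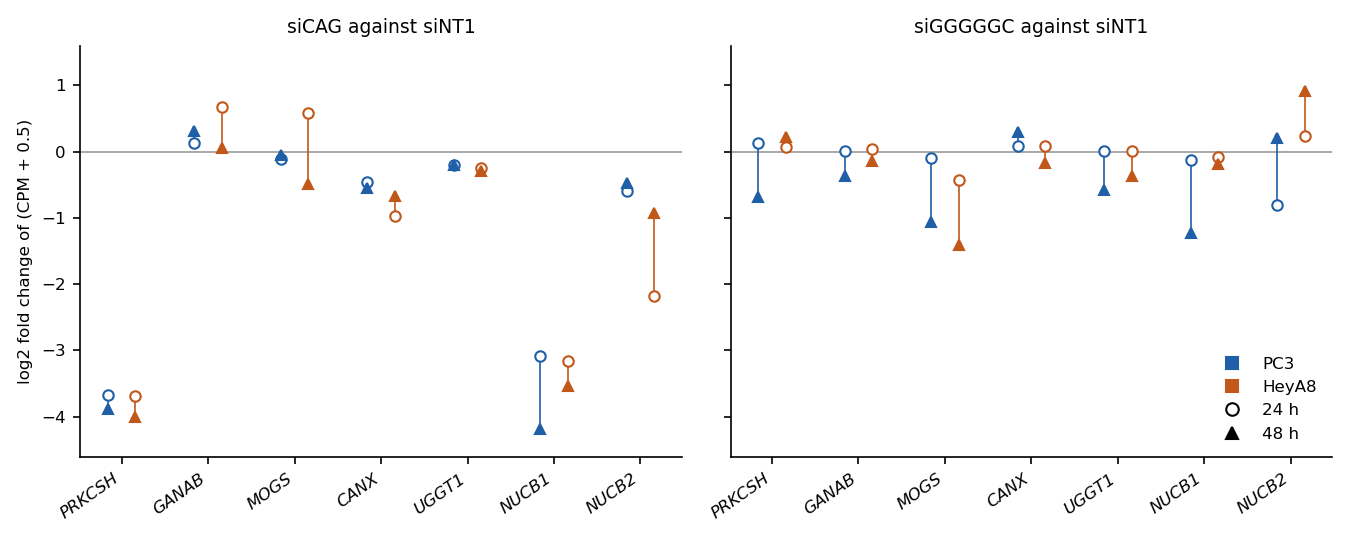
Log2 fold change of (CPM + 0.5) against siNT1 at the same time, for siCAG on the left and siGGGGGC on the right, by gene, with PC3 in blue, HeyA8 in orange, open circles for 24 h and triangles for 48 h; each point compares 1 library with 1 library and has no error. After siCAG, PRKCSH and NUCB1 lie below -3 at both times in both lines; after siGGGGGC, the lowest points are MOGS at 48 h in both lines and NUCB1 at 48 h in PC3 cells.

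After siGGGGGC none of the 7 genes was called in either line. With edgeR, 0 of 7 passed in PC3 cells (1 at an unadjusted p under 0.05, 0 by DESeq2), where 9.67% of all tested genes were called, and 0 of 7 in HeyA8 cells (1 at an unadjusted p under 0.05, 0 by DESeq2), where 0 genes were called in all, 1352 had an unadjusted p under 0.05 and DESeq2 called 305. The siNT1 libraries are shared with the siCAG comparison. MOGS had the lowest value in HeyA8 cells: it read 52.1 and 72.3 CPM after siNT1 and 38.5 and 26.9 CPM after siGGGGGC, below all other HeyA8 libraries (log2 fold change -0.93, SE 0.353, edgeR adjusted p = 0.488). When only the 4 compared libraries were fitted, this value was called (adjusted p = 0.00486). In PC3 cells MOGS read 65.0 CPM at 24 h and 34.99 CPM at 48 h after siGGGGGC, against 69.2 and 73.7 CPM after siNT1 (-0.55, SE 0.255, adjusted p = 0.182).

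The values of PRKCSH and NUCB1 after siGGGGGC in PC3 cells were low at 48 h and not at 24 h. PRKCSH read 445.2 CPM at 24 h and 282.6 CPM at 48 h, with single-time log2 fold changes of 0.12 and -0.68. NUCB1 read 103.4 CPM at 24 h and 52.6 CPM at 48 h, with -0.13 and -1.23. Over both times the log2 fold changes were -0.27 (edgeR adjusted p = 0.379) and -0.69 (adjusted p = 0.152). Without the 24 h siGGGGGC library, PRKCSH, NUCB1 and MOGS were each called lower in PC3 cells, at -0.61 (adjusted p = 0.0301), -1.06 (adjusted p = 0.0448) and -1.07 (adjusted p = 0.00572), values that rest on the lone 48 h library. In HeyA8 cells PRKCSH read 276.0 and 262.3 CPM and NUCB1 62.9 and 53.7 CPM after siGGGGGC, with log2 fold changes of 0.14 and -0.14 (adjusted p = 0.895 and 0.910).

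The remaining members were not called against siNT1. CANX read 1155 and 1290 CPM in PC3 cells, above all 6 other libraries, with a log2 fold change of 0.20 against siNT1 (edgeR adjusted p = 0.392) and 0.53 against mock (adjusted p = 0.0427). NUCB2 read 36.5 and 47.8 CPM in HeyA8 cells, above all other libraries of the line (0.56, adjusted p = 0.662), and had a log2 fold change of -0.29 in PC3 cells (adjusted p = 0.456). GANAB and UGGT1 lay between -0.28 and -0.052 in both lines. No line difference of the siGGGGGC response was called among the 7 genes (0 of 7 by edgeR, 0 at an unadjusted p under 0.05). Of all 15887 tested genes, 0 were called in that comparison and 1054 had an unadjusted p under 0.05.

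GCCCCC, the complement of the siGGGGGC seed, was counted in the canonical transcripts. NUCB1 and UGGT1 held 2 copies in the 3′ UTR, PRKCSH, GANAB and MOGS held 1, and CANX and NUCB2 held none. A copy stood in the 3′ UTR of 28.1% of all 18994 genes and at least 2 copies in 11.7%. MOGS was the member with the most copies in the coding sequence, 4, and GANAB had 1, where 41.6% of genes had at least 1. A match is a description of the letters and not a site.

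Over the 16 libraries, the genes most like PRKCSH and NUCB1 were ranked. Likeness was the Pearson correlation of log2 normalized counts, less the mean of the line, among 4975 abundant genes; the points share their libraries and the siCAG fall, so the values are a description. PRKCSH was most like RPL14, a ribosomal protein gene (r = 0.992), ICMT, an ER methyltransferase (0.990), PVRL2, a nectin (0.990), NUCB1 (0.986) and MESDC2, a chaperone of LDL-receptor family proteins (0.985). NUCB1 was most like PVRL2 (0.990), PRKCSH (0.986), CTSA, a lysosomal carboxypeptidase (0.985), RBM23 (0.982) and QSOX1, a sulfhydryl oxidase (0.980). PRKCSH and GANAB had r = -0.695. The longest CTG runs in these like genes were 10 in RPL14, 8 in CTSA and 6 in QSOX1 and RBM23. They were 5 in PVRL2 and MESDC2 and 4 in ICMT. After siCAG the log2 fold changes of these genes ran from -2.16 in RBM23 to -5.13 in RPL14 in PC3 cells. In their best 21 bases, RPL14 and CTSA differed from an unbroken CTG repeat at 0 bases. PVRL2, MESDC2 and RBM23 differed at 1 and QSOX1 at 2. ICMT differed at 5, as CANX and MOGS did, and had log2 fold changes of -3.43 in PC3 and -3.92 in HeyA8 cells.

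Beside these 7 genes, 104 others were read in 8 lists and are called pathway genes here. The lists began with dolichol-linked glycan synthesis, oligosaccharyltransferase, mannosidases, the calnexin cycle and glycoprotein disposal. The others were ER chaperones, other EF-hand proteins of the secretory pathway and polycystic liver and kidney genes. These latter lists also hold genes outside N-glycan processing. All 8 lists were chosen with earlier results of these data known, so the shares below are a description. After siCAG, 7 of 103 tested were lower and 0 higher in PC3 cells, where 1.16% of all genes were called lower and 0.0396% higher. In HeyA8 cells 7 of 100 were lower and 0 higher, beside 4.93% and 2.88% of all genes. The median log2 fold change over the lists was -0.18 in PC3 and -0.27 in HeyA8 cells. No line difference was called among them (0 of 103 by edgeR, 4 at an unadjusted p under 0.05), where 0.636% of all genes were called, 0.252% with a lower and 0.384% with a higher value in PC3 cells.

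MLEC, TXNDC5 and LRP5 were called lower in both lines and had the largest decreases in PC3 cells. MLEC, the ER lectin malectin, read 728.1 and 757.0 CPM after siNT1 and 128.9 and 84.2 CPM after siCAG in PC3 cells (log2 fold change -2.82, edgeR adjusted p = 0.00133) and had -2.77 in HeyA8 cells (adjusted p = 0.00401). TXNDC5, a protein disulfide isomerase, read 15.5 and 15.9 CPM after siNT1 and 3.12 and 2.1 CPM after siCAG in PC3 cells (-2.60, adjusted p = 0.00273), with -3.45 in HeyA8 cells (adjusted p = 0.0192). LRP5, a Wnt co-receptor linked to polycystic liver disease, read 142.2 and 133.1 CPM after siNT1 and 27.5 and 24.1 CPM after siCAG in PC3 cells (-2.42, adjusted p = 0.000889), with -2.51 in HeyA8 cells (adjusted p = 0.0196). In each of these the siCAG libraries lay below every other library of the line, and in PC3 cells all 3 kept their calls in each of 12 other settings. In HeyA8 cells the calls of TXNDC5 and LRP5 were lost without either siNT1 library, and that of MLEC without the 48 h siNT1 library. The TXNDC5 call was also lost with the 6 libraries other than siGGGGGC. The HeyA8 log2 fold changes at 24 and 48 h were -2.35 and -4.04 for TXNDC5, -2.52 and -3.00 for MLEC and -2.08 and -2.75 for LRP5.

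The other calls were smaller. In PC3 cells ALG3, a mannosyltransferase of the lipid-linked glycan, had a log2 fold change of -1.03, CRELD2, an ER stress-induced chaperone, -0.95, PDIA6, a disulfide isomerase, -0.84 and DNAJB11, an ER co-chaperone of HSPA5 and a polycystic kidney gene, -0.78. All 4 calls were lost when any of the 4 compared libraries was left out, and those of CRELD2, PDIA6 and DNAJB11 also with mock as the control. DNAJB11 read 118.0 and 104.9 CPM in mock, 177.4 and 151.2 CPM in siNT1 and 109.0 and 83.4 CPM in siCAG libraries of PC3 cells. In HeyA8 cells SDF2L1, a DNAJB11 partner, had -1.86, ALG10, a glucosyltransferase with a near-identical copy in ALG10B, -1.49, HSP90B1, the chaperone GRP94, -1.41 and DNAJB11 -1.10. Their single-time values were -1.31 and -2.27 for SDF2L1, -1.73 and -1.06 for ALG10, -1.20 and -1.60 for HSP90B1 and -0.81 and -1.40 for DNAJB11. Leaving out either siNT1 library ended these 4 HeyA8 calls, and mock as the control ended those of SDF2L1 and DNAJB11. ALG10 and DNAJB11 were also lost with the 4 compared libraries alone, and ALG10, DNAJB11 and SDF2L1 with the 6 libraries other than siGGGGGC. For siNT1 against mock, the 13 ER chaperones had a median log2 fold change of 0.361 in PC3 and 0.365 in HeyA8 cells, with 0 called by edgeR and 5 and 1 at an unadjusted p under 0.05. By list, the 12 genes of the calnexin cycle gave 3 lower in PC3 and 2 lower in HeyA8 cells, the 13 ER chaperones gave 2 and 3, dolichol-linked glycan synthesis gave 1 of 27 in each line, and polycystic liver and kidney genes gave 2 in each. None of the oligosaccharyltransferase, mannosidase, disposal or EF-hand genes was called after siCAG in either line. By edgeR, 2, 3, 2 and 2 genes of these lists had an unadjusted p under 0.05 in PC3 cells, whereas HeyA8 cells had 4, 2, 2 and 2. DESeq2 called 10 genes of all lists lower in PC3 cells, and 20 lower and 2 higher in HeyA8 cells, where it called 564 and 2547 genes in all.

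Those 3 genes also carried the longest CTG runs of the 104. The windows below (hg38, coding strand, 5′ to 3′, CTG in a row in capitals) set them beside ALG1 and CRELD2, which had 4 CTG in a row as PRKCSH and NUCB1 have:
LRP5: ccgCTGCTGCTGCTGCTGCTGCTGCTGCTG
MLEC: ctgcgaCTGCTGCTGCTGCTGCTGccgccg
TXNDC5: actgcgCTGCTGCTGCTGCTGCTGggccat
CRELD2: ctgccgcttCTGCTGCTGCTGccgcccgcg
ALG1: ctgctgccgCTGCTGCTGCTGggaggatgg
They lie in exon 1 at chr11:68312745-68312774 (+), chr12:120687339-120687368 (+), chr6:7910693-7910722 (-), chr22:49918803-49918832 (+) and chr16:5071889-5071918 (+). ALG1, the first mannosyltransferase of the pathway, differed from an unbroken CTG repeat at 1 of its best 21 bases, as NUCB1 did. Its log2 fold changes were -0.29 (edgeR adjusted p = 0.503) and -0.47 (edgeR adjusted p = 0.391) in PC3 and HeyA8 cells, where NUCB1 had -3.71 and -3.44. ALG1 was named after its values were seen and NUCB1 was chosen on this comparison, so the pair is a description.

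Of the 7 pathway genes with 4 CTG in a row, 1 (CRELD2) was called lower in PC3 cells and 0 in HeyA8 cells, whereas the 3 with at least 6 were called lower in both. The other 6 with 4 in a row, ALG1, ALG12, DPAGT1, LMAN2, RCN2 and TUSC3, had log2 fold changes from -0.81 to 0.047 in PC3 cells and from -1.09 (RCN2) to 0.27 (ALG12) in HeyA8 cells. Among all tested genes with 4 CTG in a row, 15.2% were called lower in PC3 and 15.2% in HeyA8 cells, against 0.697% and 4.85% of those with fewer. With 6 or more, 60.7% and 69.2% were called lower. Counted by bases that differ from the repeat over 21 bases, the share called lower in PC3 cells was 65.5% at 0, 46.4% at 1, 17.3% at 2 and 6.63% at 3, and in HeyA8 cells 70.4%, 49.2%, 22.2% and 5.52%. These classes include PRKCSH and NUCB1, and the counts describe the genes without a test.

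**Figure D3:**
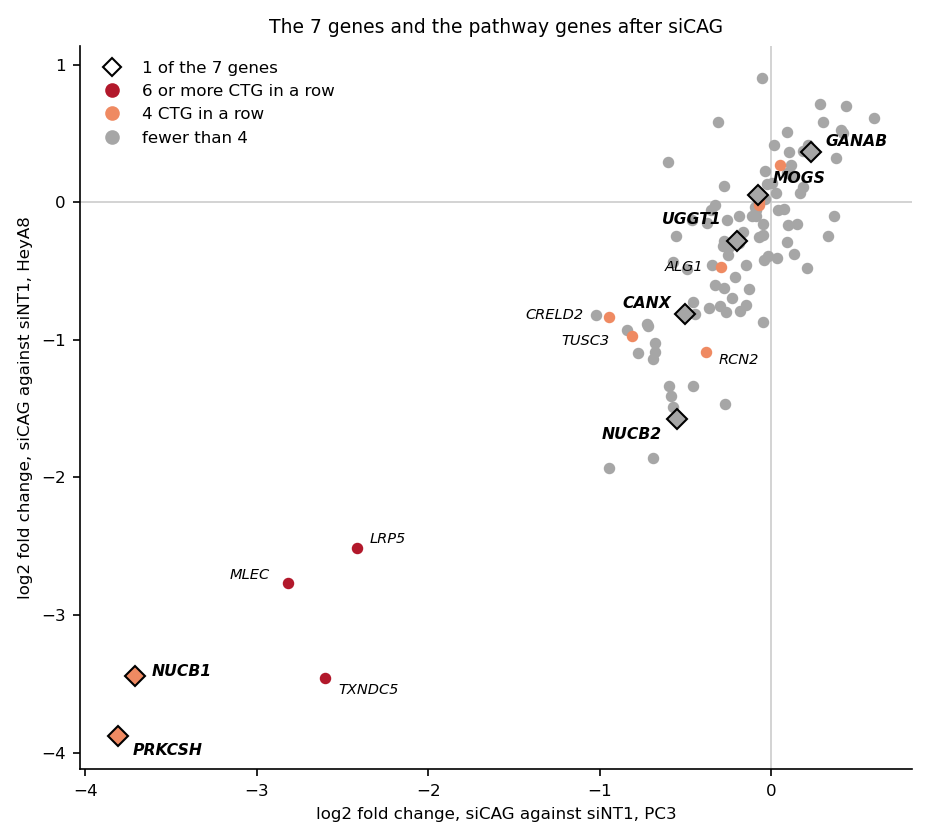
Log2 fold change after siCAG against siNT1 in PC3 cells (x axis) and HeyA8 cells (y axis) for the 7 genes (diamonds) and the pathway genes tested in both lines (circles), coloured by longest CTG run of the coding sequence (dark red 6 or more, orange 4, grey fewer). PRKCSH and NUCB1 lie at the lower left with LRP5, MLEC and TXNDC5, while ALG1 lies at -0.29 and -0.47 and the other members lie above -1.6 on both axes.

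**Figure D4:**
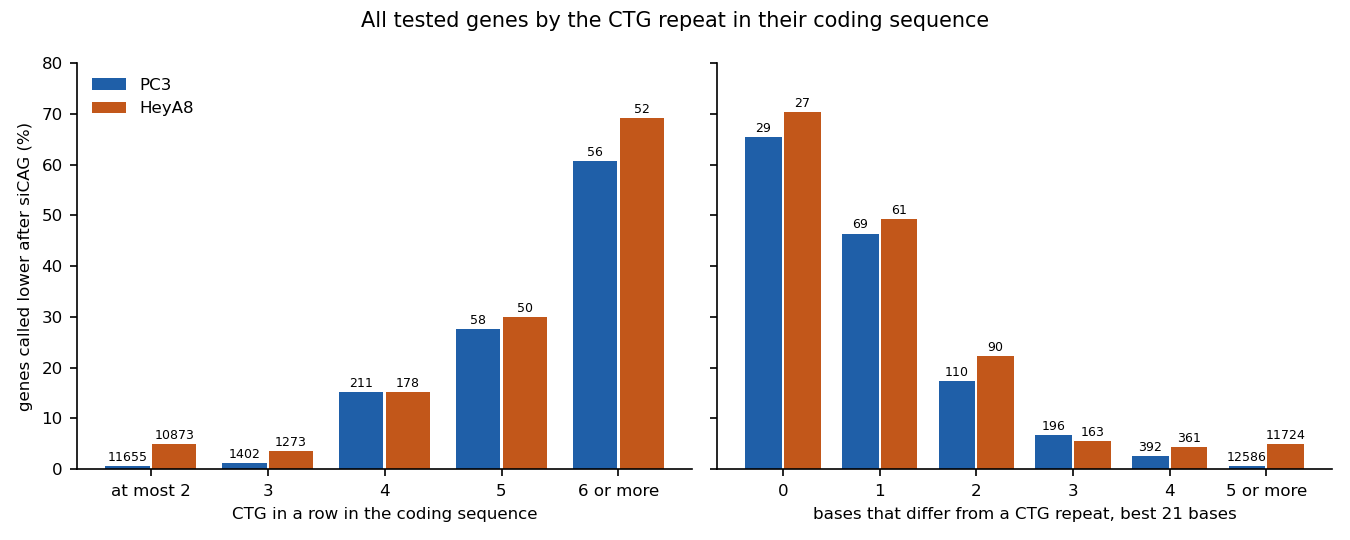
Share of all tested genes called lower after siCAG (y axis, percent) by the longest CTG run of the coding sequence (left) and by the bases that differ from a CTG repeat in the best 21 bases (right), with PC3 in blue, HeyA8 in orange and the number of genes above each bar. The share is 0.644% and 5.0% at no more than 2 CTG in a row, 1.14% and 3.53% at 3, and 60.7% and 69.2% at 6 or more.

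After siGGGGGC, pathway genes were called in PC3 cells. No line difference was called in the pathway lists (0 of 103 by edgeR, 7 at an unadjusted p under 0.05). Over all 15887 tested genes 0 were called as well, with 1054 at an unadjusted p under 0.05. In PC3 cells 9 of 103 were lower and 4 higher, where 6.00% and 3.67% of all genes were called in these directions, shares close to those of the lists. In HeyA8 cells 0 of 100 were called by edgeR (1 at an unadjusted p under 0.05, 0 by DESeq2). PKHD1, the fibrocystin gene, had 40 and 88 counts after siNT1 and 6 and 4 after siGGGGGC in PC3 cells (log2 fold change -3.63, edgeR adjusted p = 0.0147). MAN1A1, a Golgi mannosidase, read 125.0 and 134.3 CPM after siNT1 and 57.2 and 33.9 CPM after siGGGGGC (-1.54, adjusted p = 0.0188), and MAN2A1, another Golgi mannosidase, had -1.13. UGGT2, the paralog of UGGT1, read 27.0 and 18.7 CPM after siNT1 and 10.3 and 9.38 CPM after siGGGGGC (-1.19, adjusted p = 0.0219), where UGGT1 had -0.28 (adjusted p = 0.319).

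HSP90B1 had a log2 fold change of -1.07, EDEM3, a mannosidase of glycoprotein disposal, -1.03, UBXN4, a VCP adaptor, -0.98, and the prolyl isomerases FKBP7 and FKBP14 -0.96 and -0.75 in the same comparison. MAN1B1, the ER mannosidase (0.82), VCP, the ATPase that extracts proteins from the ER (0.66), and MCFD2, a cargo receptor subunit (0.63), were called higher. No such gene kept its call in every fit that left out 1 of the 4 compared libraries, and leaving out either siNT1 library ended all 13 calls.

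Between the mock-treated lines, 13 pathway genes were lower and 19 higher in PC3 than in HeyA8 cells, where 22.0% and 29.0% of all genes were called in these directions. PKHD1 had 363 counts over the PC3 mock libraries and 0 over those of HeyA8. RCN3, a calcium-binding protein of the ER, had 1281 counts against 4, and MAN1C1, a Golgi mannosidase, 82 against 1. For siNT1 against mock, edgeR called 0 pathway genes in PC3 cells (10 at an unadjusted p under 0.05, 3 by DESeq2) and 0 in HeyA8 cells (1 and 0).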

How the data were processed

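The values are counts as the authors deposited them: reads were trimmed with Trimmomatic, aligned to hg38 (STAR by the submitters' processing notes, TopHat or STAR by the paper's methods) and counted on exons per gene with HTSeq, with no normalization; how strand was counted is not given in the sources used here. All 16 columns matched a sample, 0 did not, and 0 of 120 library pairs held identical values. Levels between genes are per kilobase of the canonical transcript. Deposited gene lengths were used only for a second reading of the levels in mock-treated cells. The 7 genes and the pathway lists were chosen with earlier results of these data known.

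Counts were tested with edgeR 4.0.16 in R 4.3.3: filterByExpr by siRNA, TMM scaling, and a quasi-likelihood F test with siRNA and time as terms over the 8 libraries of a line, adjusted by Benjamini-Hochberg over all genes tested (15136 in PC3, 13872 in HeyA8). Residual variation was 18.0% and 28.2%. Line comparisons used all 16 libraries. p-values measure the spread between these libraries only. Single-time changes used log2(CPM + 0.5). The tests were checked on simulated counts. DESeq2 1.42.0, RLE scaling, other filters, no time term, fewer libraries and mock as control were alternatives.

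Pathway genes named are those called with the largest change in the same direction at both times, up to 12 after each siRNA and 3 otherwise; for likeness, the 5 closest genes. ALG1 and the other pathway genes with 4 CTG in a row were named after their values were seen. Sequences are from GENCODE v44 on hg38 (canonical transcripts); of 26485 symbols, 18021 matched directly and 974 through RefSeq synonyms.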

Additional observations from a re-analysis of the deposited data

How the results depend on the processing

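Each comparison was refitted under the alternatives named in the methods, and fits with 6 libraries were added after the data were seen. Of the log2 fold changes of the members, 324 kept their direction and, where tested, their side of the threshold, 10 reversed, 11 passed the threshold newly, 6 lost it and 4 untested values moved by more than the spread between replicates. The values for PRKCSH after siCAG ranged from -4.02 to -3.54 in PC3 and from -4.11 to -3.69 in HeyA8 cells over the left-out libraries, and those for NUCB1 from -4.11 to -3.25 and from -3.70 to -3.24. The reversed values all belonged to changes that were not called. For MOGS after siCAG they were 0.14 and 0.15 in PC3 cells (24 h siCAG or 48 h siNT1 library left out; lowest -0.33) and -0.35 and -0.29 in HeyA8 cells (24 h siCAG or siNT1 library left out; highest 0.41). For UGGT1 after siCAG in PC3 cells mock as the control gave 0.075. After siGGGGGC, CANX gave -0.012 in PC3 cells without the 48 h siGGGGGC library (highest 0.33) and 0.0995 (48 h siGGGGGC library left out, lowest -0.19) and 0.030 (mock as the control) in HeyA8 cells, NUCB2 gave 0.10 in PC3 cells without the 24 h siGGGGGC library (lowest -0.78), and GANAB 0.12 in HeyA8 cells without the 48 h siNT1 library (lowest -0.21). The cause was not tested.

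The number of pathway genes called depended on the fit. So did the number of all genes called. DESeq2 called 2547 genes after siCAG in HeyA8 cells and 2806 after siGGGGGC in PC3 cells, where edgeR called 1083 and 1463. In PC3 cells DESeq2 called 246 for siNT1 against mock and 207 for 48 h against 24 h, where edgeR called 35 and 4. Shares of all genes in the other fits are not given here, so the counts of pathway genes below describe the fits and not the lists. After siCAG in PC3 cells the 4 compared libraries alone gave 30 and each left-out library 3; in HeyA8 cells DESeq2 gave 22, the 6 libraries without siGGGGGC 3, and left-out libraries 0 to 50. After siGGGGGC in PC3 cells DESeq2 gave 20, the 4 libraries alone 4, mock as the control 36 and left-out libraries 0 to 33; the 4 libraries alone gave 3 in HeyA8 cells. For siNT1 against mock DESeq2 gave 3 and the 4 libraries alone 2 in PC3 cells and 18 in HeyA8 cells. For 48 h against 24 h DESeq2 gave 2 in PC3 cells, and the mock and siNT1 libraries alone 13 in HeyA8 cells. Between the mock lines the 4 mock libraries alone gave 71 and left-out libraries 15 to 20; the line difference of siCAG gave 0 to 12. Where leaving out a library left 1 in a condition, it was assumed to vary like the others.

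Time is the replicate number and stood in each model as a block. Without the block 5 pathway genes were called after siGGGGGC in PC3 cells, and 5 and 10 after siCAG in PC3 and HeyA8 cells. Deviations at the same time correlated at 0.0539 to 0.612 in PC3 and -0.0431 to 0.46 in HeyA8 cells. The transcript with the longest coding sequence gave the same CTG runs in all 7 genes.

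With 2 libraries a condition, the standard errors of members that were not called reached 0.353 within a line (MOGS after siGGGGGC in HeyA8 cells) and 0.486 for a line difference (MOGS after siGGGGGC). The siRNA sequence, the dose and the separation of cultures limit what a difference can be assigned to.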
